A study of Bos taurus with 33 samples.

Results

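Cumulus cells (CC) from large follicles that were induced to ovulate were compared with CC from follicles whose surge was spontaneous. The samples were all CC pools that the labels place in these 2 follicle classifications, 11 of the 17 CC pools and of 33 pools of CC or oocytes in all, with 6 large and 5 spontaneous pools. All donors were suckled postpartum beef cows that received gonadotropin releasing hormone (GnRH) on day -9 and prostaglandin F2 alpha on day -2. Cows of the large classification showed no estrus, had a follicle of at least 12.7 mm and received a further GnRH injection (GnRH2) on day 0, whereas cows of the spontaneous classification came into estrus, triggered their own gonadotropin surge and were given no GnRH2. The spontaneous classification covered follicles of 11.7 to 14 mm, so that follicle diameter and the origin of the surge differ together between the groups and cannot be told apart. Another classification, small follicles of up to 11.7 mm with GnRH2, is used here only for levels given side by side. Each pool held the CC of 4 complexes, collected about 23 h after GnRH2 or estrus by the treatment protocol and about 20 h by the stage label, and the labels do not tie single cows to pools, so p-values measure the spread between pools of several animals.

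Cumulus cells are the granulosa-derived cells that enclose the oocyte and reach it through fine projections across its coat. They take up glucose and cholesterol, pass pyruvate, nucleotides and sterols to the oocyte, and answer the preovulatory surge of luteinizing hormone by secreting a hyaluronan-rich matrix, a process called cumulus expansion. The EGF-like factors that carry the signal of the surge, the enzymes and proteins of the matrix, and the lipid, secretory and lysosomal machinery of these cells are the roles under which the transcripts are described below.

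The 11 pools held 2809623 to 5510272 reads on genes, and a transcript without a read could still have been present at up to 0.544 to 1.07 CPM (reads per 1000000 reads on genes), the worth of 3 reads, which covers counting error only. Reads on genes were fewer in large than in spontaneous pools (2809623 to 5123650 against 4535826 to 5510272, exact permutation test, two-sided p = 0.0216). Markers of cumulus and granulosa cells were abundant: the 16 listed markers, led by INHA, SERPINE2 and TNFAIP6, summed to 4896 to 8116 CPM in large and 6929 to 11302 CPM in spontaneous pools. Mitochondrially encoded transcripts took 20.1 ± 5.13% of the reads in large pools and 16.7 ± 3.35% in spontaneous pools (SD, n = 6 and 5, exact permutation p = 0.203). Large replicates 2 and 5 stood apart on the first 2 principal components, and large replicate 2 had the fewest reads and the highest mitochondrial share of the 11 pools. Theca markers summed to 4331 CPM in spontaneous replicate 2, against 986 to 1691 CPM in the other 10 pools. Summed markers of smooth muscle (20.4 to 62.6 CPM in large and 48.7 to 121 CPM in spontaneous pools), endothelium (7.38 to 36.2 CPM and 27.6 to 61.8 CPM) and erythrocytes (1.02 to 4.98 CPM and 0.975 to 2.205 CPM) were low, with the smooth muscle gene LMOD1 at 0 in every pool, and oocyte markers, nearly all UCHL1, summed to 477 to 903 CPM and 456 to 1159.9 CPM. In bulk pools, fewer cells of a type and less RNA per cell cannot be told apart.

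**Figure D1:**
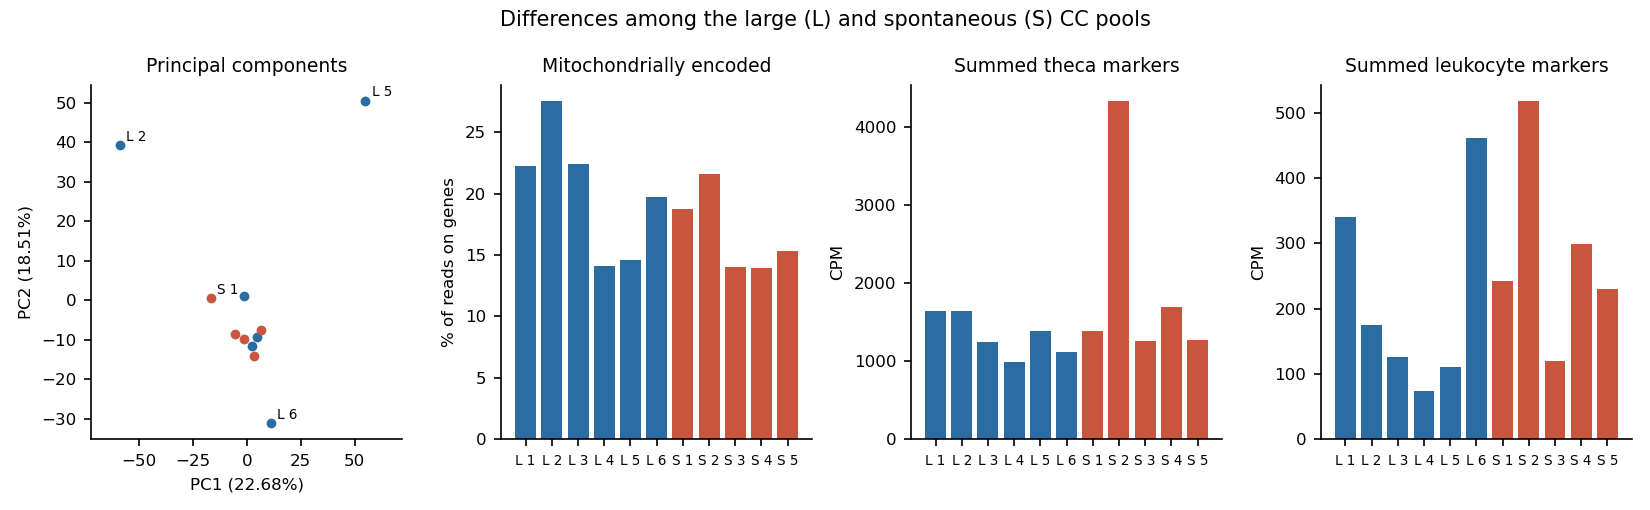
Principal components of log2(CPM + 1) and, per pool, the percent of reads on mitochondrially encoded transcripts and the summed CPM of theca and leukocyte markers, for 6 large (L, blue) and 5 spontaneous (S, red) CC pools. Large replicates 2 and 5 lie far from the other pools, and the theca sum of spontaneous replicate 2 reaches 4331 CPM.

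Of 9712 retained transcripts, 161 met a nominal p of 0.01 or less between large and spontaneous pools in limma (1.66% of those tested), with 141 higher in spontaneous pools (1.45%) and 20 higher in large pools (0.206%). A difference is called here when it met that threshold, and log2 fold changes are spontaneous minus large means of log2(CPM + 1), so positive values are higher in spontaneous pools. The balance of directions depended on the scaling. CPM share 1 total per pool, and the median log2 fold change of all retained transcripts was 0.11, and it was 0.014 after division by median-of-ratios size factors, which averaged 0.97 in large and 1.04 in spontaneous pools. With that scaling 115 transcripts met the threshold (1.18%), 61 higher in spontaneous (0.628%) and 54 higher in large pools (0.556%). With CPM recomputed without mitochondrially encoded transcripts it was 122, with 84 on the spontaneous side. The share of calls on the spontaneous side was 87.58% with CPM, 68.85% without mitochondrially encoded transcripts and 53.04% with median-of-ratios scaling, and tests on whole reads gave 52.76% of 127 calls in edgeR and 46.23% of 199 calls in DESeq2. The 2 scalings shared 81 calls, 61 higher in spontaneous and 20 higher in large pools, so all 20 transcripts called higher in large pools with CPM were called with both, the 80 called with CPM only were all higher in spontaneous pools, and the 34 called with median-of-ratios scaling only were all higher in large pools.

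**Figure D2:**
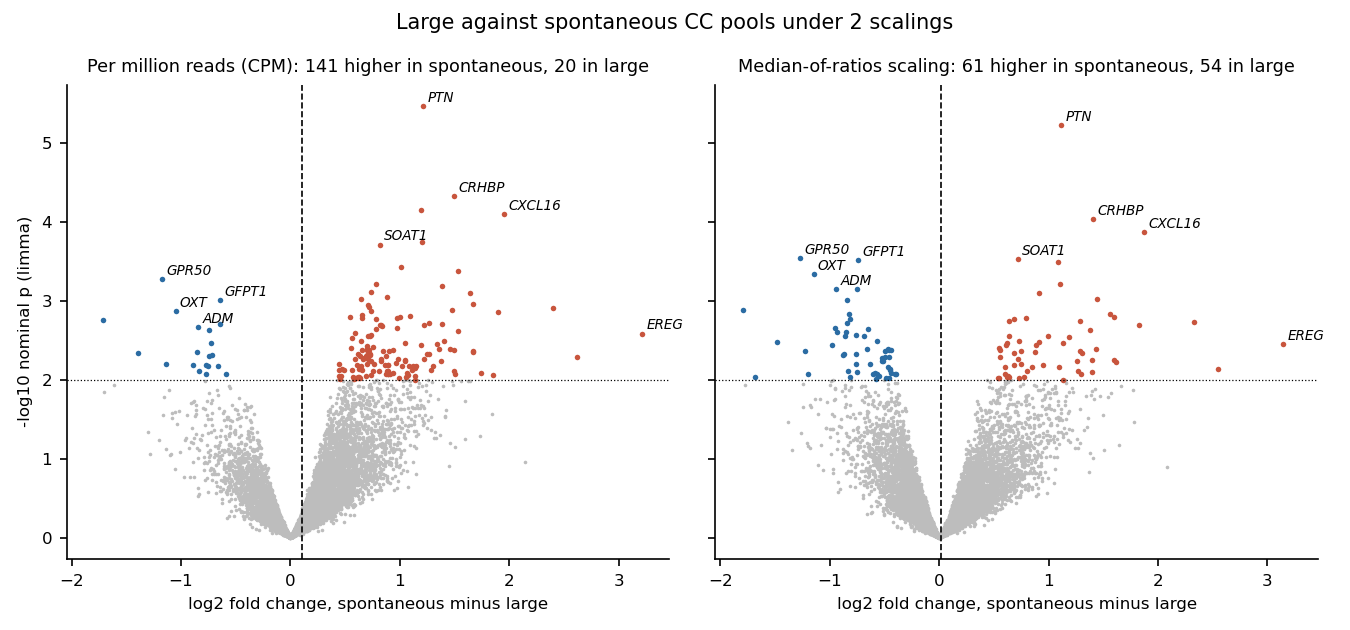
Nominal limma p (as -log10) against log2 fold change for 9712 transcripts with CPM and with median-of-ratios scaling. Red and blue points met a nominal p of 0.01 (dotted line) as higher in spontaneous and in large pools, and the dashed line marks the median of all transcripts, 0.11 with CPM and 0.014 with median-of-ratios scaling.

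After Benjamini-Hochberg adjustment over all 9712 transcripts, PTN alone passed 0.05 in limma (adjusted p = 0.033), and the other 160 calls had adjusted p of 0.193 to 0.567. Of the 161 calls, 45 did not overlap between the groups. Across all transcripts, every spontaneous pool was above every large pool for 74 (0.762%) and every large pool above every spontaneous pool for 10 (0.103%). The number of calls moved with single pools, from 91 without spontaneous replicate 4 and 100 without spontaneous replicate 5 to 236 without large replicate 2. Without both large replicates 2 and 5, an alternative chosen after the data were seen, it was 250, with 213 higher in spontaneous pools. Of the 141 transcripts called higher in spontaneous pools, 5 were under 5 CPM in every large pool, and 124 met the filter on low values in at least 5 pools outside the spontaneous classification. Levels in CPM are given as mean ± SD (n = 6 large and 5 spontaneous pools) and log2 changes with or as ± their standard error (SE). The exact permutation p given beside single transcripts compares mean CPM between the groups, two-sided and unadjusted. Where the other scaling ends the call of a transcript below, its value there is given or the loss is stated. The pools whose omission, each on its own, ends a call are also given.

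**Figure D3:**
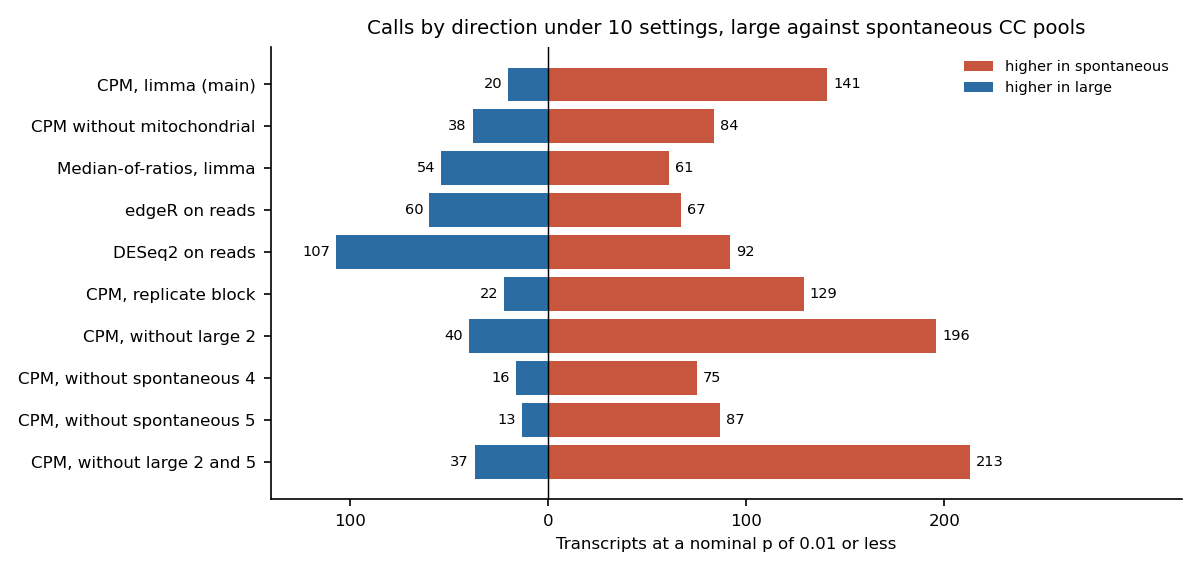
Number of transcripts at a nominal p of 0.01 or less under 10 settings, with those higher in spontaneous pools to the right (red) and those higher in large pools to the left (blue). With CPM most calls lie on the spontaneous side (141 against 20), and with median-of-ratios scaling, edgeR and DESeq2 the sides are closer (61 against 54, 67 against 60 and 92 against 107).

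The 5 calls with the smallest p were PTN, CRHBP, PCOLCE2, CXCL16 and IGFBP7, all higher in spontaneous pools. PTN (ENSBTAG00000002317), which encodes pleiotrophin, a heparin-binding growth factor of the extracellular matrix, was at 201, 140.4, 175, 226 and 223 CPM in spontaneous replicates 1 to 5 and at 62.3 to 108 CPM (median 77.3) in the 6 large pools. Each spontaneous pool was above each large pool, with means from 82.8 ± 17.3 CPM in large to 193 ± 35.8 CPM in spontaneous pools (SD), 2.33-fold (log2 fold change 1.21, SE 0.181, exact permutation p = 0.00433, limma p = 3.40e-06, adjusted p = 0.033), and this permutation p is the smallest that the arrangements of 11 pools can give. PTN met the nominal threshold in all 34 alternatives in which it was fitted, with log2 fold changes of 1.02 to 1.32, whereas its adjusted p ran from 1.67e-05 in DESeq2 to 0.686 in a fit with all 3 classifications and was under 0.05 in 14 of them (0.058 with median-of-ratios scaling). Leaving out large replicates 1, 3 or 5 or spontaneous replicates 1, 3, 4 or 5 each took the adjusted p of PTN past 0.05, to between 0.0985 and 0.230 in limma.

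CRHBP (ENSBTAG00000020202), the binding protein of corticotropin-releasing hormone, was lower in abundance, at 17.3, 18.1, 17.97, 26.9 and 29.3 CPM in spontaneous pools and 4.29 to 10.2 CPM (median 7.04) in large pools, again without overlap (log2 fold change 1.5, SE 0.277, exact permutation p = 0.00433, limma p = 4.66e-05). IGFBP7 (ENSBTAG00000019368), a secreted protein that binds insulin-like growth factors weakly, was at 632, 1047, 375, 436 and 541 CPM in spontaneous pools and 181 to 394 CPM (median 242) in large pools. Its highest value was in spontaneous replicate 2, the pool with the high theca sum, and only spontaneous replicate 3 fell into the range of the large pools (log2 fold change 1.2, SE 0.253, exact permutation p = 0.00866, limma p = 0.000181). IGF2, the ligand of that axis, was the opposite, at 181 to 528 CPM (median 367) in large and 132 to 290.1 CPM (median 206) in spontaneous pools (log2 fold change -0.77, SE 0.259, exact permutation p = 0.0390, limma p = 0.00848), a call that was lost without large replicates 1, 2, 3 and 4 and spontaneous replicates 1, 2 and 3 (p up to 0.0321). CRHBP was also placed in the list of pleiotrophin, midkine and insulin-like growth factor genes. That list was chosen with earlier results of these data known, so its counts are not independent evidence. Of its 20 retained members, PTN, CRHBP and IGFBP7 were called higher in spontaneous pools and IGF2 higher in large pools under both scalings. Over all transcripts the shares called were 1.45% and 0.206% with CPM, and 0.628% and 0.556% with median-of-ratios scaling. The median log2 fold change of the list was 0.22, and 0.12 with median-of-ratios scaling.

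**Figure D4:**
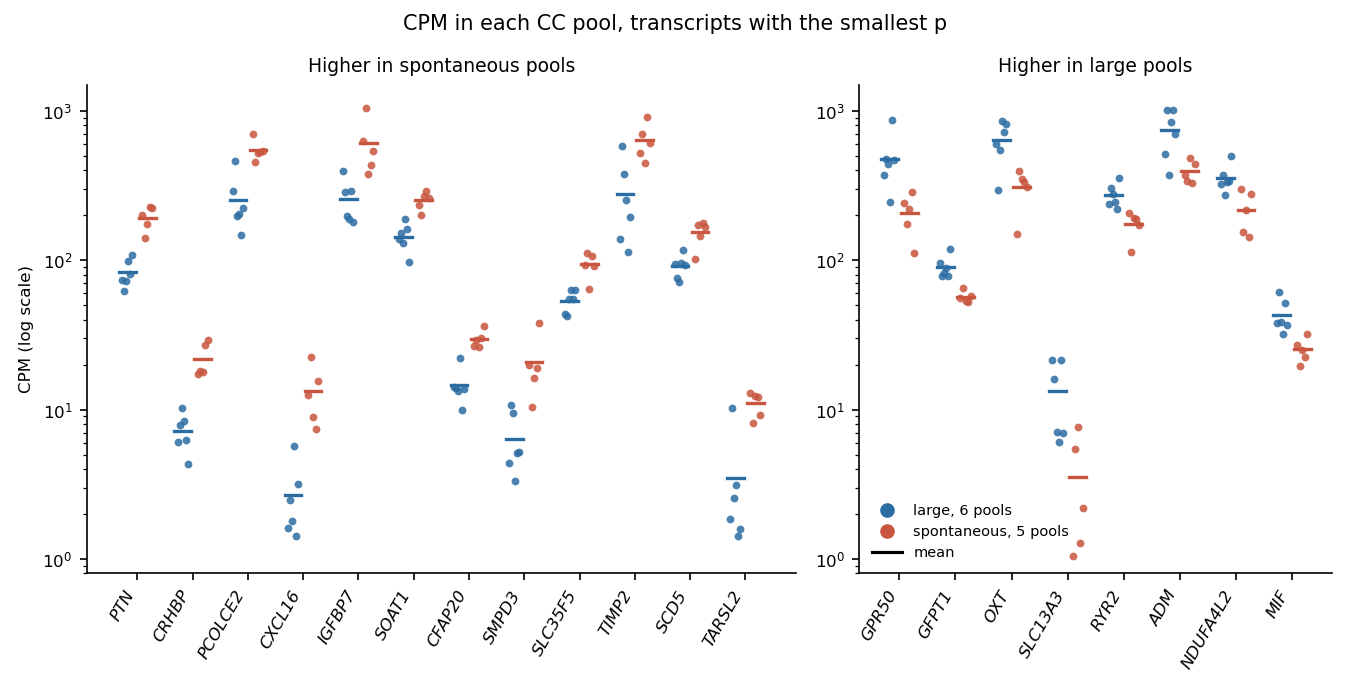
CPM on a log scale in each of 6 large (blue) and 5 spontaneous (red) CC pools for the 12 transcripts with the smallest p among those higher in spontaneous pools and the 8 among those higher in large pools, with group means as lines. PTN, CRHBP, CXCL16, SOAT1, CFAP20, SLC35F5, GFPT1 and RYR2 do not overlap between the groups.

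PCOLCE2 (ENSBTAG00000016026), an enhancer of procollagen C-proteinase, was at 694, 454, 521, 529.7 and 542 CPM in spontaneous pools and 147 to 458 CPM (median 214) in large pools, where only large replicate 2 reached the lowest spontaneous pool (log2 fold change 1.19, SE 0.229, exact permutation p = 0.00866, limma p = 6.98e-05). TIMP2, an inhibitor of matrix metalloproteinases, was at 524, 697, 446, 913 and 605 CPM against 114 to 585 CPM (median 223), and the highest large value was again that of replicate 2 (log2 fold change 1.39, SE 0.334, exact permutation p = 0.0130, limma p = 0.000650). FMOD, a small collagen-binding proteoglycan, went from 20.2 ± 9.403 CPM in large to 40.02 ± 12.6 CPM in spontaneous pools (log2 fold change 1.04, SE 0.3299, exact permutation p = 0.0173, limma p = 0.00559), a call that ended with median-of-ratios scaling (p of 0.0132) and without large replicates 1 and 3 and spontaneous replicates 1 and 2 (p up to 0.0194). SRGN and FMOD were 2 of 3 retained members of a short list of GIMAP and other transcripts named in earlier results of these pools, and the remaining one, GIMAP8, had a limma p of 0.836. Because the list was drawn from these pools, its 2 calls, beside 1.45% of all transcripts, are not independent evidence. With median-of-ratios scaling 0 of the 3 were called. SRGN, a secretory granule proteoglycan, went from 891 ± 564 CPM in large to 2026 ± 1147 CPM in spontaneous pools (log2 fold change 1.25, SE 0.385, exact permutation p = 0.0519, limma p = 0.00468), with a p of 0.0102 under median-of-ratios scaling and no call without large replicates 3, 4, 5 and 6 and spontaneous replicates 1, 4 and 5 (p up to 0.0185).

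Of 23 retained transcripts of cumulus expansion, EREG and FMOD were called higher in spontaneous pools and 0 higher in large pools, against 1.45% and 0.206% of all transcripts, and the median log2 fold change of the list was 0.21, and 0.11 with median-of-ratios scaling. EREG (ENSBTAG00000010273), an EGF-like factor released after the surge, had the largest fitted change of all calls (log2 fold change 3.21, SE 0.913, exact permutation p = 0.0606, limma p = 0.00260) and was at 8.98, 6.05, 15.1, 286 and 2.65 CPM in spontaneous pools, so that 1 pool, spontaneous replicate 4, carried most of the total. In large pools EREG was at 0 CPM in 3 pools and under 1 CPM in 2 more, and at 12.1 CPM in large replicate 2, above 3 of the 5 spontaneous pools. The call held in limma without each pool in turn (limma p up to 0.00736), and with 5 large pools at or under the worth of 3 reads the size of the fitted change depends on the pseudocount. DESeq2 on whole reads called 0 members of this list, so EREG was not called there. TNFAIP6, which links hyaluronan to its binding proteins, was at 1479.7 ± 767 CPM in large and 1596 ± 261 CPM in spontaneous pools (0.21 ± 0.241 on the log2 scale, exact permutation p = 0.827, limma p = 0.397). VCAN, the hyaluronan-binding proteoglycan versican, was at 20998 ± 4630.3 and 15853 ± 5453 CPM (-0.44 ± 0.263 on the log2 scale, exact permutation p = 0.139, limma p = 0.111), a spread that left no call. PTGS2, the cyclooxygenase induced by the surge, was at 1803 ± 1378 and 1914 ± 703 CPM (0.55 ± 0.568 on the log2 scale, exact permutation p = 0.887, limma p = 0.345). FGF2, which encodes basic fibroblast growth factor, averaged 42.8 ± 17.8 CPM in large and 107 ± 85.1 CPM in spontaneous pools (SD) and was at 92.6, 46.2, 107, 249.9 and 38.8 CPM in the spontaneous pools (1.07 ± 0.384 on the log2 scale, exact permutation p = 0.0390, limma p = 0.0130). FGF2 overlapped between the groups. In limma with single pools left out, it met the threshold only without large replicate 2 and without spontaneous replicates 2 and 5 (lowest p of 0.00243). With all pools, limma called 0 of the 16 retained transcripts of the list of FGF ligands, receptors and feedback genes under either scaling. On whole reads, edgeR and DESeq2 each called 1 member of this list, higher in spontaneous pools. The study, which used these 2 tests, names FGF2 as higher in spontaneous than in large pools.

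Cells take up, make and store cholesterol through the genes of the next group. Of 43 retained transcripts of cholesterol synthesis, uptake, transport and esterification, 5 were called higher in spontaneous pools and 0 in large pools (the background being 1.45% and 0.206%), 36 had a positive log2 fold change, and the median log2 fold change of the list was 0.34, and 0.24 with median-of-ratios scaling. With median-of-ratios scaling 4 were called, all but ABCA1, beside 0.628% of all transcripts called higher in spontaneous pools with that scaling. SOAT1 (ENSBTAG00000004059), which esterifies cholesterol for storage, was at 235, 199.7, 269, 290.2 and 263 CPM in spontaneous pools and 96.6 to 187 CPM (median 144) in large pools, without overlap (log2 fold change 0.82, SE 0.173, exact permutation p = 0.00433, limma p = 0.000193). ACAT2, the thiolase that starts the mevalonate pathway, was at 171, 114, 126, 138 and 139 CPM against 51.7 to 104 CPM (median 86.1), also without overlap (log2 fold change 0.72, SE 0.185, exact permutation p = 0.00433, limma p = 0.00120). TMEM97, a membrane protein of sterol transport, was at 32.6, 29.8, 31.9, 28.1 and 28.2 CPM against 12.6 to 23.1 CPM (median 17.3) (log2 fold change 0.78, SE 0.2102, exact permutation p = 0.00433, limma p = 0.00168).

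DHCR7, the enzyme of the last step of cholesterol synthesis, went from 38.7 ± 15.9 CPM in large to 76.5 ± 26.6 CPM in spontaneous pools (0.97 ± 0.261 on the log2 scale, exact permutation p = 0.0216, limma p = 0.00163), and its highest large pool, replicate 2 at 69.8 CPM, lay above 3 of the 5 spontaneous pools. ABCA1, the exporter of cellular cholesterol, was at 18.2, 31.01, 14.5, 28.1 and 32.6 CPM in spontaneous pools, whereas large replicate 2 had 0 reads and large replicate 5 1.42 CPM (1.85 ± 0.626 on the log2 scale, exact permutation p = 0.0130, limma p = 0.00882, with median-of-ratios scaling p of 0.0133). That call was lost without large replicates 2 and 5 and spontaneous replicates 1, 2, 4 and 5 (p up to 0.0238). SCARB1, the receptor for high-density lipoprotein, turned on 1 pool. It was at 682, 711, 599, 558 and 1002 CPM in spontaneous pools and at 1279.5 CPM in large replicate 2, against 213 to 417 CPM in the other 5 large pools. With all pools SCARB1 was not called (0.96 ± 0.349 on the log2 scale, exact permutation p = 0.212, limma p = 0.0133), and without large replicate 2 its log2 fold change was 1.33 (limma p of 2.11e-06, adjusted p = 0.0103). HMGCS1, an abundant enzyme of the mevalonate pathway, was at 265 ± 63.9 CPM in large and 349 ± 142 CPM in spontaneous pools (0.34 ± 0.233 on the log2 scale, exact permutation p = 0.238, limma p = 0.166).

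Fatty acid genes gave calls in the same direction. Of 24 retained transcripts of fatty acid synthesis and storage, 3 were called higher in spontaneous pools, beside 1.45% of all transcripts, and the median log2 fold change of the list was 0.17, and 0.072 with median-of-ratios scaling. SCD5, a stearoyl-CoA desaturase, was at 103, 173, 146, 179 and 167 CPM in spontaneous pools and 71.8 to 116 CPM (median 93.8) in large pools (log2 fold change 0.74, SE 0.181, exact permutation p = 0.00866, limma p = 0.000762). ELOVL6, an elongase of saturated fatty acids, went from 46.9 ± 11.5 CPM in large to 79.1 ± 22.3 CPM in spontaneous pools (0.74 ± 0.211 on the log2 scale, exact permutation p = 0.00866, limma p = 0.00273) and lost its call without spontaneous replicate 1 (p of 0.0112). HSD17B12, the ketoacyl-CoA reductase of elongation, did not overlap between the groups, at 240.3 to 329.8 CPM (median 272) and 180.2 to 228 CPM (median 214) (0.44 ± 0.142 on the log2 scale, exact permutation p = 0.00433, limma p = 0.00638), but was not called with median-of-ratios scaling (p of 0.0186) or without large replicates 1 and 6 and spontaneous replicates 3 and 4 (p up to 0.0251).

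Among 54 retained transcripts of fatty acid activation, carnitine transport and oxidation, 4 were called, all higher in spontaneous pools, beside 1.45% of all transcripts, and the median log2 fold change of the list was 0.30, and 0.20 with median-of-ratios scaling. BDH2, a cytosolic hydroxybutyrate dehydrogenase, was at 74.4, 72.8, 74.4, 65.5 and 90.2 CPM in spontaneous and 13.5 to 54.5 CPM (median 43.96) in large pools, without overlap (log2 fold change 1.09, SE 0.2903, exact permutation p = 0.00433, limma p = 0.00157). SLC27A2, an activating enzyme of very long chain fatty acids, was at 64.98, 60.1, 143, 203 and 173 CPM, with replicates 1 and 2 inside the large range of 36.9 to 75.9 CPM (median 60.05) (1.05 ± 0.309 on the log2 scale, exact permutation p = 0.0476, limma p = 0.00337), and it was not called without spontaneous replicates 3, 4 and 5 (p up to 0.0143). SLC22A5, the carnitine transporter, and THEM4, a mitochondrial thioesterase, had fitted log2 changes of 1.02 and 1.14 (limma p of 0.00667 and 0.00996), and with median-of-ratios scaling both missed the threshold (p of 0.0134 and 0.0144). SLC22A5 was also lost without large replicates 4 and 6 and spontaneous replicates 1, 4 and 5 (p up to 0.0279), and THEM4 without large replicates 1, 2, 4 and 6 and spontaneous replicates 2, 3, 4 and 5 (p up to 0.0382). SMPD3, a neutral sphingomyelinase outside these lists, was at 19.9, 10.3, 16.3, 19.1 and 37.9 CPM in spontaneous and 3.32 to 10.7 CPM (median 5.15) in large pools, where large replicate 2 lay above the lowest spontaneous pool (log2 fold change 1.54, SE 0.353, exact permutation p = 0.00866, limma p = 0.000423).

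**Figure D5:**
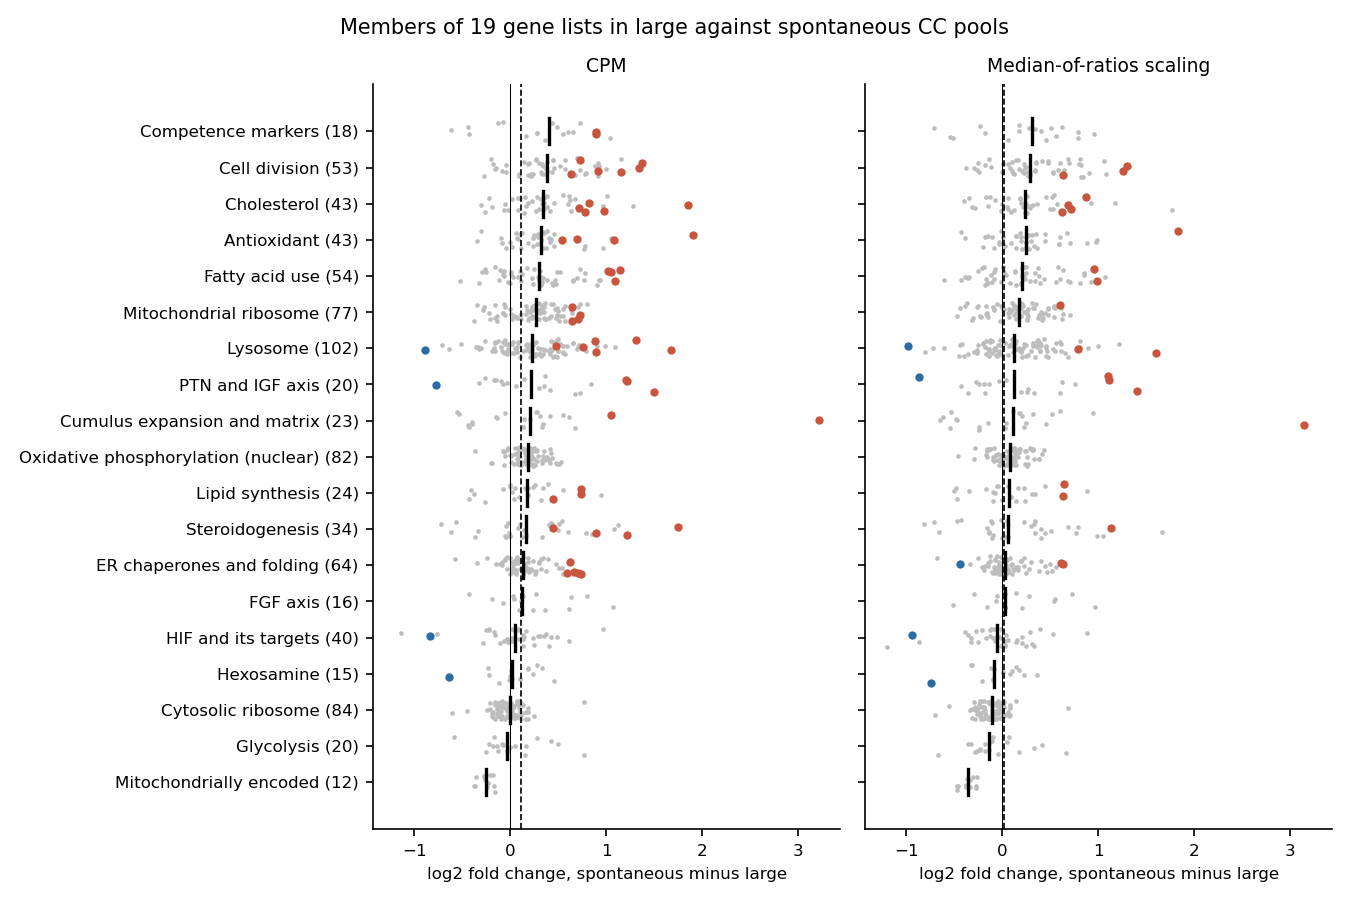
Log2 fold change of each retained member of 19 gene lists (number of members in brackets) with CPM and with median-of-ratios scaling. Red and blue points met a nominal p of 0.01 as higher in spontaneous and in large pools, black bars are list medians and the dashed line is the median of all transcripts. The medians run from -0.25 for mitochondrially encoded transcripts to 0.40 for competence markers with CPM. The competence list mixes markers of more and of less competent oocytes.

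Chaperones and folding enzymes of the endoplasmic reticulum followed. Of 64 retained members, 5 were higher in spontaneous pools and 0 in large pools (1.45% and 0.206% over all transcripts), and the median log2 fold change of the list was 0.13, and 0.031 with median-of-ratios scaling, close to the medians over all transcripts. HSP90B1 (ENSBTAG00000003362), the HSP90 of the endoplasmic reticulum, was at 6356, 3160.3, 3548, 4207 and 4178 CPM in spontaneous pools and 2189.5 to 3209.9 CPM (median 2762) in large pools, where spontaneous replicate 2 alone lay within the large range (log2 fold change 0.62, SE 0.191, exact permutation p = 0.00866, limma p = 0.00470). MANF, a secreted protein induced by unfolded proteins, was at 94.4, 126, 113, 124 and 141 CPM against 47.1 to 86.7 CPM (median 76.5), without overlap (log2 fold change 0.71, SE 0.182, exact permutation p = 0.00433, limma p = 0.00114). CREBRF, a regulator of the CREB3 stress factor, was at 100.1, 56.6, 74.2, 71.3 and 97.7 CPM against 37.5 to 59.6 CPM (median 45.8) (log2 fold change 0.74, SE 0.192, exact permutation p = 0.00866, limma p = 0.00134). CALR, a calcium-binding chaperone of glycoproteins, and DNAJB11, a co-chaperone, had fitted log2 changes of 0.59 ± 0.187 and 0.66 ± 0.1995 (limma p of 0.00539 and 0.00417).

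MANF and CREBRF held with both scalings and without each pool in turn. The calls of HSP90B1, CALR and DNAJB11 ended with median-of-ratios scaling (p of 0.0136, 0.0178 and 0.0146). HSP90B1 was also lost without large replicates 3 and 6 and spontaneous replicates 1 and 4 (p up to 0.0151), CALR without large replicates 3 and 4 and spontaneous replicates 3, 4 and 5 (p up to 0.0201) and DNAJB11 without large replicates 1, 5 and 6 and spontaneous replicates 2 and 4 (p up to 0.0140). CANX, an abundant lectin chaperone, was at 1709.6 ± 192 CPM in large and 1756 ± 291 CPM in spontaneous pools (0.027 ± 0.162 on the log2 scale, exact permutation p = 0.779, limma p = 0.868). PDIA6, a disulfide isomerase, was just outside the threshold, at 816 ± 131 and 1139.9 ± 213 CPM (0.48 ± 0.166 on the log2 scale, exact permutation p = 0.00866, limma p = 0.0103). CREB3L2, a transcription factor of the secretory pathway, was the reverse case: at 450.1 ± 90.4 CPM in large and 353 ± 60.7 CPM in spontaneous pools it was called only with median-of-ratios scaling, as higher in large pools (log2 fold change -0.44, p of 0.00818, against -0.34 and p of 0.0528 with CPM).

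The lysosome list follows a pathway that the study picked out from transcripts of this same comparison, so the counts of its members are not independent evidence of its direction. Of 102 retained members, 6 were called higher in spontaneous pools (GLB1, AP1S3, CD68, CTSZ, CTSA and DNASE2) and 1, GGA3, higher in large pools, where the shares over all transcripts were 1.45% and 0.206%, and the median log2 fold change of the list was 0.23, and 0.13 with median-of-ratios scaling. With median-of-ratios scaling the calls were GLB1, AP1S3 and GGA3, beside shares of 0.628% and 0.556% over all transcripts. With CPM, the number of members called higher in spontaneous pools ran from 3 to 8 as each pool was left out. GLB1 (ENSBTAG00000015254), the lysosomal beta-galactosidase, was at 38.03, 72.2, 64.4, 51.5 and 60.8 CPM in spontaneous and 21 to 42.4 CPM (median 29.7) in large pools, with only spontaneous replicate 1 inside the large range (log2 fold change 0.89, SE 0.221, exact permutation p = 0.00866, limma p = 0.000884). AP1S3 (ENSBTAG00000011133), a small subunit of the clathrin adaptor that sorts lysosomal enzymes, was at 11.9, 8.97, 11.3, 6.896 and 9.92 CPM against 0.226 to 5.33 CPM (median 2.65), without overlap, with the lowest large value in replicate 6 (log2 fold change 1.67, SE 0.427, exact permutation p = 0.00433, limma p = 0.00109). GGA3 (ENSBTAG00000016128), another sorting adaptor of the Golgi, was lower in 4 of 5 spontaneous pools than in any large pool, at 11.1, 7.02, 7.26, 8.17 and 5.07 CPM against 10.7 to 22.6 CPM (median 13.7) (log2 fold change -0.89, SE 0.288, exact permutation p = 0.00866, limma p = 0.00656). Its call was lost without large replicates 5 and 6 and spontaneous replicates 2, 3, 4 and 5 (p up to 0.0219).

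The cathepsins and CD68 were less stable. CTSA, a serine carboxypeptidase that protects lysosomal galactosidase, was at 126 to 164 CPM (median 139) in spontaneous and 76.2 to 117 CPM (median 107) in large pools and did not overlap (0.47 ± 0.156 on the log2 scale, exact permutation p = 0.00433, limma p = 0.00742). CTSZ, a cysteine cathepsin, was at 27.2, 76.3, 21.4, 34.1 and 25.1 CPM in spontaneous pools, with its highest value in replicate 2, against 11.7 to 22.2 CPM (median 18.8) (0.89 ± 0.299 on the log2 scale, exact permutation p = 0.0130, limma p = 0.00857). DNASE2, the acid nuclease, went from 23.98 ± 8.31 CPM in large to 39.2 ± 4.71 CPM in spontaneous pools (0.75 ± 0.2496 on the log2 scale, exact permutation p = 0.00866, limma p = 0.00764). The call of CTSA was lost without large replicates 2, 5 and 6 and spontaneous replicates 1, 2, 3 and 4 (p up to 0.0264), that of CTSZ without large replicates 2, 4, 5 and 6 and spontaneous replicates 1, 2 and 4 (p up to 0.0380) and that of DNASE2 without large replicates 5 and 6 and spontaneous replicates 1, 2, 3 and 5 (p up to 0.0203), and with median-of-ratios scaling p was 0.0229, 0.0189 and 0.0158. PSAP, the precursor of the saposins, was at 1329, 1379, 1416, 3731 and 2096 CPM in spontaneous pools and 575 to 1476 CPM (median 1151) in large pools and fell just outside the threshold (0.79 ± 0.272 on the log2 scale, exact permutation p = 0.0216, limma p = 0.0101), inside which it came without large replicate 3 and without spontaneous replicates 1, 2 and 3 (lowest p of 0.00662). LAPTM4B, a lysosomal membrane protein and the most abundant member of the list, was at 2302 ± 719 CPM in large and 2132 ± 315 CPM in spontaneous pools (-0.074 ± 0.199 on the log2 scale, exact permutation p = 0.758, limma p = 0.716).

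CD68 (ENSBTAG00000000133), a lysosomal glycoprotein of macrophages, was at 31.1, 48.2, 9.44, 18.3 and 14.99 CPM in spontaneous and 2.56 to 17.8 CPM (median 8.25) in large pools (log2 fold change 1.31, SE 0.424, exact permutation p = 0.0346, limma p = 0.00666). With median-of-ratios scaling p was 0.0126, and the call was lost without large replicates 3 and 5 and spontaneous replicates 1, 2 and 4 (p up to 0.0293). CXCL16 (ENSBTAG00000031998), a membrane-bound chemokine and scavenger receptor, did not overlap, at 12.5, 22.4, 8.89, 7.44 and 15.4 CPM against 1.42 to 5.66 CPM (median 2.14), 4.96-fold between the means (log2 fold change 1.96, SE 0.381, exact permutation p = 0.00433, limma p = 7.95e-05). Leukocyte markers were present beside them: 16 of the 29 listed were retained, 15 of these had a positive log2 fold change (median 0.72, 0.63 with median-of-ratios scaling), 0 were called, and their summed level was 73.8 to 461 CPM in large and 120.3 to 518 CPM in spontaneous pools (exact permutation p = 0.442). When large replicate 6 was left out 2 of these markers were called on the spontaneous side, beside 123 of all 9712 retained transcripts. Without spontaneous replicate 3 it was 1, beside 101 of 9712. The median log2 fold change of the leukocyte markers was 0.31 in edgeR and in DESeq2. It ran from 0.47 without spontaneous replicate 2 to 0.98 without large replicate 1. CD74 and C1QB, among the 3 most abundant of them, had limma p of 0.0922 and 0.0616, and the highest sums were in spontaneous replicate 2 (518 CPM) and large replicate 6 (461 CPM). The part of these cells in the levels of CD68, CXCL16 and the lysosomal list was not tested.

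Steroidogenic and granulosa transcripts gave 4 calls among 34 retained members, all higher in spontaneous pools (1.45% over all transcripts). These were INHA, CYP19A1, SRD5A3 and HSD17B12, the last already counted in the list of fatty acid synthesis. On whole reads the directions were mixed, with 2 higher in spontaneous and 1 higher in large pools in edgeR, and 2 and 2 in DESeq2. The median log2 fold change of the list was 0.16, and 0.061 with median-of-ratios scaling. INHA (ENSBTAG00000009972), the inhibin alpha subunit of granulosa cells, was at 1823, 2579.6, 2876, 4855 and 4083 CPM in spontaneous and 1083 to 3512 CPM (median 1554) in large pools (log2 fold change 0.89, SE 0.289, exact permutation p = 0.0563, limma p = 0.00656). The highest large pool was replicate 2, which lay above 3 spontaneous pools. CYP19A1, the aromatase that makes estradiol, was low throughout, at 6.27, 7.41, 5.81, 18.7 and 20.1 CPM in spontaneous pools and 0 to 6.76 CPM (median 3.76) in large pools (1.74 ± 0.582 on the log2 scale, exact permutation p = 0.0390, limma p = 0.00813). With median-of-ratios scaling INHA and CYP19A1 were not called (p of 0.0162 and 0.0120). The call of INHA was lost without large replicates 1, 3, 5 and 6 and spontaneous replicates 3, 4 and 5 (p up to 0.0248) and that of CYP19A1 without large replicates 1, 5 and 6 and spontaneous replicates 2, 4 and 5 (p up to 0.0291). SRD5A3, a polyprenol reductase of the steroid 5-alpha-reductase family, did not overlap, at 10.03, 9.95, 7.81, 10.3 and 14.6 CPM against 2.03 to 7.38 CPM (median 3.66), and held with both scalings (log2 fold change 1.22, SE 0.335, exact permutation p = 0.00433, limma p = 0.00200).

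Of 18 retained transcripts that earlier work links to oocyte competence, INHA and CTSZ were called higher in spontaneous pools with CPM, beside 1.45% of all transcripts. Both were already counted in the steroidogenic and lysosome lists. The study cites earlier work that links them to competence in opposite directions. CTSZ was higher in CC of less competent oocytes, whereas INHA, measured in oocytes, was higher with greater competence. With median-of-ratios scaling 0 of the 18 were called. The median log2 fold change of the list was 0.40, and 0.31 with median-of-ratios scaling. Because the list mixes both kinds of marker, its median does not measure competence. SERPINE2, a protease inhibitor and the next most abundant granulosa marker, was at 1394 ± 471 CPM in large and 2013 ± 554 CPM in spontaneous pools (0.56 ± 0.247 on the log2 scale, exact permutation p = 0.0779, limma p = 0.0370). The summed cumulus and granulosa markers averaged 6312 CPM in large and 8543 CPM in spontaneous pools (exact permutation p = 0.0433). INHA, itself called with CPM, was the most abundant of them, so this p is not independent of that call. Of the 14 retained markers, 11 had a positive log2 fold change, whereas INHBB and PTX3 were at -0.62 and -0.55. With CPM 2 were called, and with median-of-ratios scaling 0, beside 1.45% and 0.628% of all transcripts called higher in spontaneous pools.

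Antioxidant transcripts gave 4 calls higher in spontaneous pools and 0 higher in large pools among 43 retained members. Over all transcripts 1.45% and 0.206% were called in these directions. In the list 37 members had a positive log2 fold change, and the median was 0.32, and 0.24 with median-of-ratios scaling. TXN, thioredoxin, was at 359.8, 342, 276, 289.8 and 351 CPM in spontaneous and 191 to 277 CPM (median 216) in large pools (log2 fold change 0.54, SE 0.145, exact permutation p = 0.00866, limma p = 0.00161), and with median-of-ratios scaling its p of 0.01003 was just past the threshold. PRDX1, a peroxiredoxin, was at 497, 1038, 1568, 2325 and 1348 CPM against 276 to 1048 CPM (median 576) (log2 fold change 1.08, SE 0.352, exact permutation p = 0.0433, limma p = 0.00673), and was not called with median-of-ratios scaling (p of 0.0105) or without large replicates 1, 2, 5 and 6 and spontaneous replicates 3, 4 and 5 (p up to 0.0262). MGST1, a membrane-bound glutathione transferase, was at 16.7, 17.2, 4.36, 7.26 and 17.2 CPM against 0.712 to 8.805 CPM (median 2.04) and held with both scalings and without each pool (log2 fold change 1.9, SE 0.4999, exact permutation p = 0.0216, limma p = 0.00140). GSTA3, a glutathione transferase with close paralogs among which reads could be split, went from 446 ± 173 CPM in large to 702 ± 176 CPM in spontaneous pools (0.70 ± 0.224 on the log2 scale, exact permutation p = 0.0476, limma p = 0.00624), with a p of 0.0107 under median-of-ratios scaling and no call without large replicates 1, 2, 3 and 6 and spontaneous replicates 3, 4 and 5 (p up to 0.0247). TXNIP, the thioredoxin-binding protein and the next most abundant member after PRDX1, was at 673 ± 144 and 803 ± 191 CPM (0.25 ± 0.188 on the log2 scale, exact permutation p = 0.238, limma p = 0.208).

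All 12 retained mitochondrially encoded transcripts had a negative log2 fold change, 0 were called, and the median was -0.25 with CPM and -0.35 with median-of-ratios scaling. The range over single pools, shown by COX3 at 22357 to 59730.0 CPM in large and 19689 to 35842 CPM in spontaneous pools, was wide (-0.38 ± 0.296 on the log2 scale, exact permutation p = 0.143, limma p = 0.221). Of 82 retained nuclear subunits of the respiratory complexes 0 were called with all pools, and the median log2 fold change of the list was 0.18, and 0.082 with median-of-ratios scaling. As each pool was left out, the number called higher in spontaneous pools ran from 0 to 5. It was 5 without spontaneous replicate 1, where 139 of 9712 transcripts were called in that direction. Mitochondrial ribosomal proteins gave 4 calls of 77, all higher in spontaneous pools (1.45% over all transcripts), and the median log2 fold change of the list was 0.27, and 0.17 with median-of-ratios scaling. MRPL39 and MRPL52 did not overlap between the groups (0.72 ± 0.223 on the log2 scale, exact permutation p = 0.00433, limma p = 0.00474 and 0.64 ± 0.209 on the log2 scale, exact permutation p = 0.00433, limma p = 0.00711), and MRPL19 alone of the 4 was called with median-of-ratios scaling too (0.70 ± 0.213 on the log2 scale, exact permutation p = 0.00866, limma p = 0.00426, with median-of-ratios scaling p of 0.00842). MRPL19 was lost without spontaneous replicates 2 and 3 (p up to 0.0171), MRPL39 without large replicate 4 and spontaneous replicates 4 and 5 (p up to 0.0177), MRPL52 without large replicates 3 and 6 and spontaneous replicates 2, 3, 4 and 5 (p up to 0.0209) and MRPS23 (0.64 ± 0.219 on the log2 scale, exact permutation p = 0.0130, limma p = 0.00961) without large replicates 1, 2, 3 and 6 and spontaneous replicates 2, 3, 4 and 5 (p up to 0.0245). With median-of-ratios scaling the limma p was 0.0143 for MRPL52 and 0.0163 for MRPS23, and MRPL39 was not called either. Cytosolic ribosomal proteins gave 0 calls of 84, with a median of -0.0052 with CPM and -0.11 with median-of-ratios scaling.

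DNA replication and mitosis held 6 calls of 53 retained members, all higher in spontaneous pools, the direction of 1.45% of all transcripts, and the median log2 fold change of the list was 0.38, and 0.29 with median-of-ratios scaling. NCAPH, a condensin subunit, did not overlap between the groups, at 5.43, 12.7, 5.63, 15.1 and 5.95 CPM in spontaneous and 0.903 to 4.63 CPM (median 2.81) in large pools (log2 fold change 1.34, SE 0.396, exact permutation p = 0.00433, limma p = 0.00355). EXO1, an exonuclease of DNA repair, was at 6.48, 7.61, 3.81, 21.6 and 3.75 CPM against 1.27 to 3.41 CPM (median 2.22), also without overlap (log2 fold change 1.37, SE 0.436, exact permutation p = 0.00433, limma p = 0.00585). TUBG1, the gamma-tubulin of spindle poles, was at 51.6, 44.9, 31.04, 44.5 and 60.2 CPM against 20.7 to 32.6 CPM (median 28.1) (log2 fold change 0.73, SE 0.209, exact permutation p = 0.0130, limma p = 0.00278). These 3 were called with both scalings. TTK, a spindle checkpoint kinase, KIF11, a spindle motor, and STMN1, a regulator of microtubules, had limma p of 0.00670, 0.00845 and 0.00932 and were not called with median-of-ratios scaling (p of 0.0127, 0.0156 and 0.0254).

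Omission of single pools ended each of these 6 calls in some case. NCAPH was lost without spontaneous replicates 2 and 4 (p up to 0.0178), TUBG1 without spontaneous replicate 5 (p of 0.0124), EXO1 without large replicates 3 and 4 and spontaneous replicates 1, 2 and 4 (p up to 0.0327), TTK without large replicates 4, 5 and 6 and spontaneous replicates 1, 2 and 4 (p up to 0.0296), KIF11 without large replicates 2, 3, 4 and 6 and spontaneous replicates 2, 3, 4 and 5 (p up to 0.0306) and STMN1 without large replicates 2, 4, 5 and 6 and spontaneous replicates 2, 3, 4 and 5 (p up to 0.0305). The list ran from 1 to 7 calls as each pool was left out, with a median log2 fold change of 0.29 to 0.48. TOP2A, a topoisomerase of dividing cells and among the 3 most abundant members, was at 103 ± 19.1 CPM in large and 149.6 ± 40.1 CPM in spontaneous pools (0.51 ± 0.197 on the log2 scale, exact permutation p = 0.0519, limma p = 0.0184).

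The 20 transcripts higher in large pools were called under both scalings. GPR50 (ENSBTAG00000005950), an orphan receptor related to the melatonin receptors, was at 243 to 875 CPM (median 455) in large pools and 240.1, 176, 220.2, 287 and 111 CPM in spontaneous pools, of which only replicate 4 reached the lowest large pool (log2 fold change -1.17, SE 0.275, exact permutation p = 0.00866, limma p = 0.000533). OXT (ENSBTAG00000008026), which encodes oxytocin, was at 296 to 859 CPM (median 663) in large and 149, 397, 352, 336 and 309 CPM in spontaneous pools, and the lowest large pool was replicate 2 (log2 fold change -1.05, SE 0.274, exact permutation p = 0.0216, limma p = 0.00135). RYR2, a calcium release channel, was at 219.6 to 354 CPM (median 261) in large and 207, 114, 191, 189.7 and 173 CPM in spontaneous pools, without overlap (log2 fold change -0.65, SE 0.177, exact permutation p = 0.00433, limma p = 0.00196). SLC13A3, a dicarboxylate transporter, was at 6.05 to 21.6 CPM (median 11.6) and 1.04, 5.46, 7.62, 1.27 and 2.205 CPM in the same order (log2 fold change -1.71, SE 0.464, exact permutation p = 0.0216, limma p = 0.00177).

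GFPT1 (ENSBTAG00000017626), the rate-limiting enzyme of the hexosamine pathway that supplies the precursor of hyaluronan, was at 77.9 to 119 CPM (median 85.1) in large and 56, 64.95, 53.01, 52.4 and 57.98 CPM in spontaneous pools, and the groups did not overlap (log2 fold change -0.64, SE 0.162, exact permutation p = 0.00433, limma p = 0.000970). It was the only call among 15 retained hexosamine transcripts, beside 0.206% of all transcripts called higher in large pools. The median of that list was 0.017 with CPM and -0.083 with median-of-ratios scaling, and OGT, which attaches the product to proteins, was at 193 ± 64.9 and 161 ± 42.4 CPM (-0.23 ± 0.236 on the log2 scale, exact permutation p = 0.359, limma p = 0.344). ADM (ENSBTAG00000021048), adrenomedullin, a vasoactive peptide induced by hypoxia, was at 374 to 1015 CPM (median 768) in large and 373, 341, 480.5, 329 and 443 CPM in spontaneous pools, with large replicate 3 inside the spontaneous range (log2 fold change -0.84, SE 0.234, exact permutation p = 0.0173, limma p = 0.00217). GPR50, OXT, RYR2, SLC13A3, GFPT1 and ADM were called without each of the 11 pools in turn.

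ADM was the only call among 40 retained members of the list of hypoxia-inducible factors and their targets, beside 0.206% of all transcripts called higher in large pools. The list includes the factors HIF1A, EPAS1 and ARNT, and shares SLC2A1 and SLC2A3 with the glycolysis list. Its median was 0.049 with CPM and -0.051 with median-of-ratios scaling. HIF1A was at 4711 ± 505 CPM in large and 6165 ± 1721 CPM in spontaneous pools (0.35 ± 0.201 on the log2 scale, exact permutation p = 0.0519, limma p = 0.0977). NDUFA4L2, a mitochondrial protein known to be induced by hypoxia, was at 272 to 499 CPM (median 335) in large and 143 to 299.8 CPM (median 216) in spontaneous pools (log2 fold change -0.74, SE 0.208, exact permutation p = 0.0130, limma p = 0.00238) and lost its call without spontaneous replicate 4 (p of 0.0103). Glycolytic enzymes and glucose transporters gave 0 calls of 20 with a median of -0.039 with CPM and -0.14 with median-of-ratios scaling, and the abundant GAPDH and LDHA had fitted log2 changes of -0.19 ± 0.194 and -0.13 ± 0.161 (limma p of 0.353 and 0.437).

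Further transcripts higher in large pools were MIF, an inflammatory cytokine (-0.73 ± 0.214 on the log2 scale, exact permutation p = 0.00866, limma p = 0.00342), MT1E, a metallothionein with near-identical copies among which reads could be split (-1.14 ± 0.365 on the log2 scale, exact permutation p = 0.0216, limma p = 0.00629), and DENND2A, an activator of RAB GTPases (-1.39 ± 0.428 on the log2 scale, exact permutation p = 0.0260, limma p = 0.00457). MIF was at 31.8 to 61.2 CPM (median 38.4) in large and 19.7 to 32.2 CPM (median 25.2) in spontaneous pools, so that 1 spontaneous pool entered the large range. The call of MIF was lost without spontaneous replicates 2 and 4 (p up to 0.0126), that of MT1E without large replicates 2 and 5 and spontaneous replicates 1 and 5 (p up to 0.0234) and that of DENND2A without large replicates 2 and 5 and spontaneous replicates 3 and 4 (p up to 0.0175).

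Other transcripts among those with the smallest p or the largest change were higher in spontaneous pools. CFAP20, a protein of cilia, was at 26.7, 29.1, 26.3, 29.9 and 36.2 CPM in spontaneous and 9.94 to 22.1 CPM (median 13.8) in large pools, without overlap (log2 fold change 1.01, SE 0.229, exact permutation p = 0.00433, limma p = 0.000370). SLC35F5, a solute carrier, was at 93.4, 112, 64.1, 107 and 91.7 CPM against 42 to 63.4 CPM (median 55.05), also without overlap (log2 fold change 0.78, SE 0.187, exact permutation p = 0.00433, limma p = 0.000605). TARSL2, related to threonyl-tRNA synthetase, was at 12.96, 8.19, 12.3, 12.2 and 9.26 CPM against 1.42 to 10.3 CPM (median 2.2), where large replicate 2 at 10.3 CPM was the only large pool above 3.12 CPM (log2 fold change 1.64, SE 0.404, exact permutation p = 0.0130, limma p = 0.000791).

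TFPI2, an inhibitor of serine proteases, was at 5.85, 58.7, 9.08, 3.27 and 8.82 CPM in spontaneous pools, with most of the total in replicate 2, and at 0 to 3.82 CPM (median 1.48) in large pools (log2 fold change 2.4, SE 0.622, exact permutation p = 0.00866, limma p = 0.00124). APOA2, an apolipoprotein of high-density lipoprotein, was at 8.57, 21.1, 28.3, 119.6 and 49.8 CPM against 0.356 to 23.7 CPM (median 6.04), with 3 large pools under 1 CPM (2.62 ± 0.8198 on the log2 scale, exact permutation p = 0.0476, limma p = 0.00522), and its call was lost without large replicates 1, 2 and 5 and spontaneous replicates 4 and 5 (p up to 0.0205). CFAP20, SLC35F5, TARSL2 and TFPI2 were called under both scalings and without each pool in turn.

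The levels in small-follicle pools, which share the GnRH2 injection with large pools, are given beside these for the leading transcripts. PTN was at 82.8 CPM on average in large, 193 in spontaneous and 154 in small pools, where 6 pools spread from 47.5 to 412 CPM, across both other groups. CRHBP averaged 9.86 CPM in small pools (1.52 to 23.4) and PCOLCE2 261 CPM (100.3 to 528), both reaching into the spontaneous levels. CXCL16 averaged 6.31 CPM in small pools (2.76 to 12.03), SOAT1 152 CPM (88.4 to 234) and IGFBP7 209.7 CPM (122 to 311), the last below every spontaneous pool. For the transcripts higher in large pools, GPR50 averaged 206 CPM in small pools (86.5 to 399), GFPT1 54.9 CPM (29.8 to 89.6) and OXT 567 CPM (59.1 to 1023). Differences with small pools were not tested here.

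The same 2 classifications were also compared in oocyte pools (6 large and 4 spontaneous), whose table was scaled separately. Of the 161 CC calls 128 were retained in oocyte pools, 64 had the same sign there, and 0 met the nominal threshold in limma, where 95 of 10076 oocyte transcripts did (0.943%). PTN was at 3.63 and 8.99 CPM in large and spontaneous oocyte pools (limma p of 0.0476), SOAT1 at 198 and 260.4 CPM (p of 0.0473) and GFPT1 at 402 and 372 CPM (p of 0.390).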

How the data were processed

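RNA of pooled CC from 4 complexes was amplified and sequenced. The deposited values are CPM, which the authors made from reads aligned to UMD3.1 with Hisat2 and counted per gene with featureCounts, in separate tables for CC and oocytes. The strand setting of the counting is not given in the sources used here. A fold change here is on the log2(CPM + 1) scale, and it understates changes of low transcripts. From 16244 genes listed for CC, 9712 that reached 5 CPM in 5 or more of the 17 CC pools were retained, of which 418 had no symbol. Large (6) and spontaneous (5) CC pools were compared with limma 3.58.1 (trend, two-sided) in R 4.3.3, at a nominal p of 0.01 and a Benjamini-Hochberg p of 0.05, and single values with an exact permutation test over all arrangements of the 11 pools (scipy 1.17.1). Median-of-ratios scaling was applied to the same values.

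CPM steps gave whole reads for 100% of values (tolerance 0.01), on which edgeR 4.0.16 called 127 transcripts and DESeq2 1.42.0 called 199 at the nominal p. Further alternatives were CPM without mitochondrially encoded transcripts, pseudocount 0.1, no filter on low values, a filter at a mean of 1 CPM, all 3 classifications in one fit, a replicate block and each pool left out. Reads per pool ran from 2809623 to 5510272, and 3 reads were worth 0.544 to 1.07 CPM. Replicates differed by more than sampling noise (chi-square per degree of freedom of at least 14.9), so each pool was counted once. The test scripts were tested on simulated data. The members and the 27 gene lists (20 pathway and 7 marker lists) were chosen with earlier results of these data known. Named transcripts were those the study names for this comparison, the 12 with the smallest p higher in spontaneous and the 8 higher in large pools under both scalings, list members called under either scaling or among the 3 most abundant of a list, the 5 largest changes in each direction, all adjusted calls, and the most abundant and absent markers. Promoter sequences were not analysed here.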

Additional observations from a re-analysis of the deposited data

Results flagged for a closer look

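In 156 groups of pools examined for a single pool far from the rest, a gap to the nearest pool above Dixon's 95% critical value was found in 16. The groups covered 69 transcripts, not all of those named in the text, so a transcript absent here may not have been examined. For normally distributed values in unselected, independent groups, chance flags about 1 in 20. Here the values were CPM, most transcripts were chosen by their p, change or level, and the groups share pools. How unusual 16 flags are therefore cannot be read from that rate. In large pools, large replicate 2 was the far pool for EREG (12.1 CPM), TARSL2 (10.3 CPM), DHCR7 (69.8 CPM), INHA (3512 CPM), summed erythrocyte markers (4.98 CPM) and summed oocyte markers (477 CPM). Large replicate 5 was far from the rest for GPR50 (875 CPM), MGST1 (8.80 CPM) and summed endothelium markers (7.38 CPM), and large replicate 4 for CFAP20 (22.1 CPM). In spontaneous pools, replicate 2 stood apart for TFPI2 (58.7 CPM), CTSZ (76.3 CPM) and summed theca markers (4331 CPM), replicate 4 for EREG (286 CPM) and EXO1 (21.6 CPM), and replicate 1 for ELOVL6 (118 CPM). The calls of EREG, TARSL2, DHCR7, MGST1, GPR50, CFAP20 and TFPI2 held without each pool in turn, whereas those of INHA, CTSZ, EXO1 and ELOVL6 did not.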

How the results depend on the processing

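Against 161 nominal calls, 1 adjusted call and 87.58% on the spontaneous side, the fits stayed within 1.5 times 161 calls unless stated here. No transcript passed an adjusted p of 0.05 (0) with median-of-ratios scaling, without a filter, in a fit of all 3 classifications, in edgeR, or in both edgeR and DESeq2, and 9 did in DESeq2 alone. The spontaneous share was 53.04% with median-of-ratios scaling, 68.85% without mitochondrially encoded transcripts, 93.7% with all 3 classifications, 52.76% in edgeR, 46.23% in DESeq2 and 50.83% in calls shared by edgeR and DESeq2. Leaving out each pool gave 91 to 236 nominal calls, 0 to 8 adjusted calls and a share of 80.47% to 90.16%, with 91 without spontaneous replicate 4, 100 without spontaneous replicate 5 and 236 calls, 8 of them adjusted, without large replicate 2. With median-of-ratios scaling, chosen for this use after the data were seen, the share was 57.58%, 55.45%, 50.72%, 54.24%, 51.85% and 63.37% without large replicates 1 to 6 and 57.76%, 57.84%, 57.73%, 51.32% and 55% without spontaneous replicates 1 to 5. Those fits held 101 nominal calls without large replicate 6 and 102, 97, 76 and 80 without spontaneous replicates 2 to 5, and their adjusted calls numbered 9 without large replicate 2, 1 without large replicate 6 or spontaneous replicate 2, and 0 otherwise. Without large replicates 2 and 5 together there were 250 calls, 8 adjusted, and with median-of-ratios scaling 240 calls, 7 adjusted, with a share of 55%. The cause of these shifts was not tested. The replicate block gave 151 calls, 129 on the spontaneous side, and 1 adjusted call, with 3 of 16 leukocyte markers called on the spontaneous side. With median-of-ratios scaling the block gave 106 calls, 0 adjusted, and a share of 62.26%. Large and spontaneous pools share only numbers: deviations of same-numbered pools correlated at -0.055 to 0.12, and not every pool correlated best with its own number.

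Of 67 named calls, 43 held with median-of-ratios scaling, 50 without mitochondrially encoded transcripts, 63 with a pseudocount of 0.1, 51 without a filter, 67 with a mean of at least 1 CPM, 50 with all 3 classifications, 44 with the replicate block, 47 in edgeR and 50 in DESeq2, and 38 (without spontaneous replicate 4) to 56 with single pools left out. None of the 67 reversed under these alternatives. The depth of 2809623 to 5510272 reads leaves EREG at or under 3 reads in 5 large pools.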

Other observations

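In large replicate 2, several transcripts lay at or beyond the levels of the spontaneous pools, apart from the other 5 large pools. The transcripts given here were chosen after their values were seen, from those past an adjusted p of 0.05 in limma when that pool was left out, alone or with large replicate 5, under either scaling. LRP8, a lipoprotein and reelin receptor, was at 137 CPM in large replicate 2, at 19.5, 13.2, 15.03, 39.5 and 8.81 CPM in the other large pools and at 90.9, 71.6, 40.1, 86.2 and 75.2 CPM in spontaneous pools. Its log2 fold change was 1.5 with all pools (limma p of 0.00778) and 1.99 without large replicate 2 (limma adjusted p = 0.0185). PI15, a secreted peptidase inhibitor, was at 193 CPM in that pool, at 54.2, 42.5, 43.1, 24.99 and 44.9 CPM in the other large pools and at 237, 103, 97.5, 86.7 and 168 CPM in spontaneous pools (adjusted p = 0.0185 without large replicate 2). IL4R, the interleukin 4 receptor, was at 36.7 CPM there, at 6.03, 12.5, 8.98, 15.9 and 3.84 CPM in the other large pools and at 31.8, 30.04, 18.2, 33.9 and 39.2 CPM in spontaneous pools (limma p of 0.00405 with all pools). HSD11B1, which interconverts cortisone and cortisol, had the opposite order, at 37.02 CPM in large replicate 2, 112, 131, 161, 136 and 125 CPM in the other large pools and 75.4, 58.5, 90.6, 65.7 and 74.1 CPM in spontaneous pools (limma p of 0.0680 with all pools). SCARB1, PCOLCE2, TARSL2 and TIMP2 also passed an adjusted p of 0.05 without that pool, with 0.0103, 0.00391, 0.0279 and 0.0185.

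Spontaneous replicate 2 was likewise apart for 2 transcripts named after their values were seen. STAR, which moves cholesterol into mitochondria for steroid synthesis, was at 315 CPM in that pool and at 0.852 to 12.3 CPM in the other 10. SPP1, the matrix protein osteopontin, was at 403 CPM there and at 2.87 to 29.9 CPM in the other 10. Neither was called between the groups (limma p of 0.226 and 0.0512).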
